A study of Homo sapiens with 6 samples.

Results

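The interleukin-1 (IL-1) family and its receptors were examined as 10 genes matched by symbol: IL1A, IL1B, IL18, IL33, IL36G, IL1RN, IL36RN, IL1R1, IL1R2 and IL1RAP. The array table held 135750 probe sets for transcripts with 81496 gene symbols, and 11 probe sets carried one of the 10 symbols. For each gene the probe set with the highest mean over the 5 arrays compared was used. IL1RAP was the gene with more than 1 probe set. IL1RN, the secreted and intracellular antagonist of IL-1, was 9.65-fold higher in fluvastatin-resistant cells than in their parental line. With parental values within background raised to the background level, IL1RN was 7.20-fold higher. IL1A and the decoy receptor IL1R2 were also higher.

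The study profiled total RNA of 2 human breast epithelial cell lines on Clariom D arrays, whose short probes cover both coding and noncoding RNAs. MCF10.AT1 is a preneoplastic line of the MCF10A series, labelled as untreated and sensitive to fluvastatin, a statin that inhibits HMG-CoA reductase. MCF10.AT1-R was selected from it in fluvastatin raised from 1 to 5 and up to 20 µM, and is labelled as resistant. The question was which genes differ between cells that acquired resistance and the cells they came from. Both lines were grown in the same medium and share the genetic background of MCF10A cells. MCF10.AT1-R is 1 line selected from 1 parental line, so resistance and other differences between these lines cannot be told apart, and the labels do not say whether drug was present at harvest. The labels give 3 replicates per line, which the study calls biological replicates, and 2 MCF10.AT1 and 3 MCF10.AT1-R arrays were compared. In the fit as reported, p-values rest on 1 common SD estimated over all tested probe sets. A gene's own spread between cultures therefore does not set its p-value. The labels call the cell type breast cancer.

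The 2 MCF10.AT1 arrays compared were A01 and A02, and the 3 MCF10.AT1-R arrays were B02, B03 and B04. The remaining MCF10.AT1 array, A03, was removed as an outlier in the study and is therefore shown apart here. The study's reason was a principal component analysis, whose leading component set A03 apart in a way it could not explain by biology. A03 held the lowest value of the 6 arrays for 20.2% of tested probe sets. That share was not compared with those of the other arrays and does not by itself mark an outlier. The 10 markers of breast epithelium were both basal (KRT5, KRT14, KRT17, KRT6A, TP63 and ITGA6) and luminal or general (KRT8, KRT18, EPCAM and CDH1). All were above the negative-control probes on all 5 arrays. All except ITGA6, KRT18 and EPCAM were past the false discovery rate (FDR) of 5% as higher in MCF10.AT1-R. Over all tested probe sets 0.758% were past it as higher. Values are log2 expression by the RMA method, so that a difference of 1 is a doubling. A value was called above background when it exceeded 2.99, the mean over the 5 arrays of the 95th percentile of the negative-control probe sets. Levels of different genes were not compared with each other, because each probe set has its own response. In RNA of whole cultures, fewer cells of a type and less RNA per cell cannot be told apart.

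IL-1α and IL-1β bind the receptor IL1R1, which then recruits the accessory protein IL1RAP and signals through MYD88, IRAK kinases and TRAF6 to the NF-kappaB and AP-1 transcription factors. Restraint comes from IL1RN, which occupies IL1R1 without recruiting the accessory protein, and from IL1R2, a decoy that binds IL-1 but lacks the signalling domain. IL-18, IL-33 and the IL-36 cytokines use related receptors, and epithelial cells such as keratinocytes are known to store IL-1α and the intracellular form of IL1RN.

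The promoters of the 3 genes past the threshold are shown first, since these genes carry the result. RefSeq windows on GRCh38.p14, from 250 bases before to 50 bases from each start site, were found for 9 of the 10 genes, in 18 windows. No window was matched for IL18. The windows were searched on both strands for the kappaB motif, the AP-1 motif TGANTCA and the TATA motif TATAAA. The kappaB motif was present in 11.3% of 35116 windows of all genes, AP-1 in 7.71% and TATA in 11.5%. Counted over 27305 genes, 13.3% had a kappaB match in at least 1 window, 9.37% an AP-1 match and 14% a TATA match. Among the 9 family genes, which had more windows per gene than genes in general, 2 had a kappaB match, 2 an AP-1 match and 4 a TATA match in at least 1 window. In the sequences below capitals mark the matches, and each sequence runs 5′ to 3′ on the strand of its gene.

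IL1A window 1, chr2:112784444-112784743, minus strand, printed below as IL1A, holds TATAAA starting at −239 and AP-1 matches at −12 and 39 relative to the start site. In the overlapping IL1A window 2, not printed, the same AP-1 matches start at −105 and −55, and there is no TATA match. IL1RN window 2 and IL1R2 window 1 hold no match and are not printed. IL1RN window 1, chr2:113117721-113118020, plus strand, holds an AP-1 match at −223. IL1RN window 3, chr2:113127348-113127647, plus strand, holds TTTATA at −32 and the overlapping TATAAA at −30, read as 1 stretch. IL1R2 window 2, chr2:101991710-101992009, plus strand, holds a kappaB match at −125 and TATAAA at −30.
IL1A: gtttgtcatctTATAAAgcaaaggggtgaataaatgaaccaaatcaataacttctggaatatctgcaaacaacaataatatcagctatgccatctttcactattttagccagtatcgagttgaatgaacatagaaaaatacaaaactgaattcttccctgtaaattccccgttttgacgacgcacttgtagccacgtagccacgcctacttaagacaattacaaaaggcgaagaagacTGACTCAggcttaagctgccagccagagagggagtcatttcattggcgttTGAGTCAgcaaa
IL1RN window 1: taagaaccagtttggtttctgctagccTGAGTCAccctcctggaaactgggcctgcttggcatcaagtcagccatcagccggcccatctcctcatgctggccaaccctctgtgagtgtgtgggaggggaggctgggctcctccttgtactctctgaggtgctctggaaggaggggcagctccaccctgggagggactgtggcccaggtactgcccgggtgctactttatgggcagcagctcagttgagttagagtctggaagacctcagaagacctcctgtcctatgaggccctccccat
IL1RN window 3: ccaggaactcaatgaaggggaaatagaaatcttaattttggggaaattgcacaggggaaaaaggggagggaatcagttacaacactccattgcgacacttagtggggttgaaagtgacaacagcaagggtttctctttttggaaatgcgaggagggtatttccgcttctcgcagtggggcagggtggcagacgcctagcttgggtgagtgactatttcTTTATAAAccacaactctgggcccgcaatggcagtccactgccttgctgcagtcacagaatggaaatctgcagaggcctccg
IL1R2 window 2: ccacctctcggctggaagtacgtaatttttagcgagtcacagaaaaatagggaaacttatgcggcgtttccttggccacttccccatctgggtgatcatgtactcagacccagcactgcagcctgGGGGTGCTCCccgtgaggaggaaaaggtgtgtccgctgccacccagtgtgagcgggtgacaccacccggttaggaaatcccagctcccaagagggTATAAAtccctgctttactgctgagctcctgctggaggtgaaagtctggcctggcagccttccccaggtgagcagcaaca
IL1A and IL1RN were the 2 genes with an AP-1 match. A match describes these letters and does not show that a factor was bound, and which start site each line used was not measured.

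Of the 10 genes, 8 passed the filters on low and invariant probe sets and were tested, and 3 were past FDR 5% by limma with Benjamini-Hochberg adjustment over all 51457 tested probe sets, all of them higher in MCF10.AT1-R. Over all tested probe sets 1.20% were past this threshold in either direction and 0.758% were past it as higher. For 4 of the 10 genes every MCF10.AT1-R array lay above both MCF10.AT1 arrays, and for none did every one lie below, where 26.7% of tested probe sets did not overlap in either direction and 12.9% were higher without overlap. The median change over the 10 genes was 0.25 on the log2 scale, against −0.01 over all tested probe sets, and the changes ran from −0.34 to 3.27. Every member is thus accounted for by 3 higher, 5 tested and not past the threshold, and 2 not tested.

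**Figure D1:**
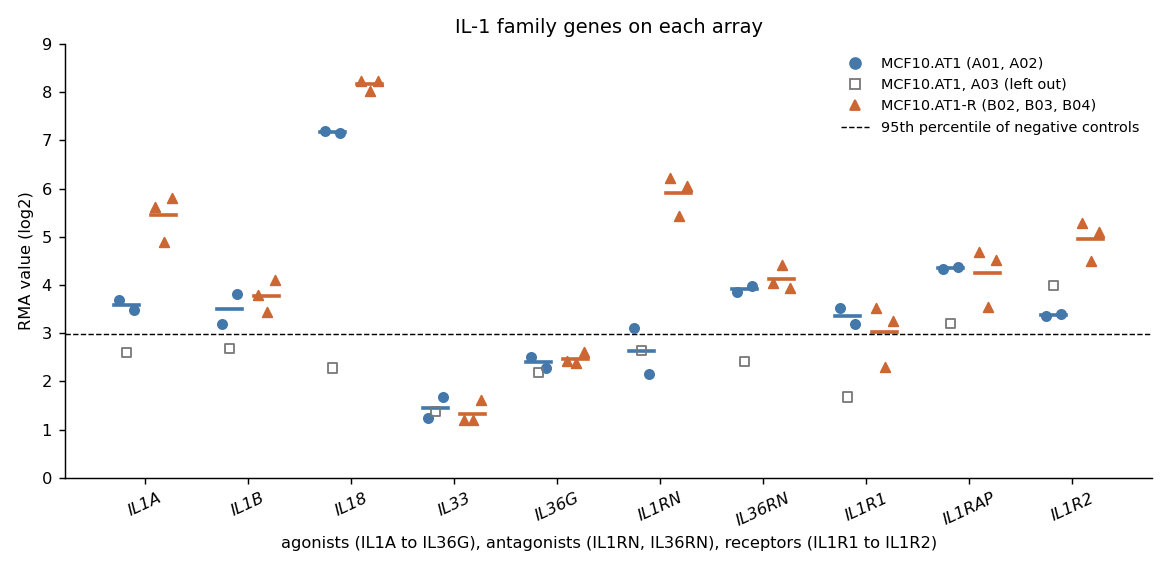
RMA values (log2, vertical axis) of the 10 genes on each of the 6 arrays, with 1 point per array: MCF10.AT1 arrays A01 and A02, the excluded array A03, and MCF10.AT1-R arrays B02, B03 and B04. Short lines are means of the arrays compared and the dashed line is the negative-control level of 2.99. IL1A, IL18, IL1RN and IL1R2 are the genes whose resistant arrays all lie above both parental arrays A01 and A02.

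Among the agonists, IL1A (probe set TC0200013913.hg.1) encodes IL-1α, which acts from the cell surface or after release from injured cells. Its log2 values were 3.68 and 3.47 on the MCF10.AT1 arrays and 5.63, 4.90 and 5.81 on the MCF10.AT1-R arrays. The lowest resistant array lay 1.22 above the highest parental one. IL1A rose by 1.87 ± 0.31 (SE, n = 2 and 3), which is 3.65-fold, with a 95% confidence interval from 1.26 to 2.48 and adjusted p = 9.7e-07 in limma with Benjamini-Hochberg adjustment. It ranked 86th among 37678 tested probe sets with a symbol, ordered from the largest rise. IL1A was not past the threshold without a filter on probe sets (adjusted p = 0.080), with the low-expression filter alone (0.082), with values floored at the negative controls (0.113) or with A03 counted (0.395), all by limma.

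IL1B (TC0200013916.hg.1), which encodes the inducible form that caspase-1 matures in the inflammasome, was at 3.18 and 3.81 on the MCF10.AT1 arrays and at 3.79, 3.43 and 4.11 on the MCF10.AT1-R arrays. The lines overlapped. The difference was 0.28, with a 95% confidence interval from −0.33 to 0.89 and adjusted p = 0.840 by limma, so that a rise of the size seen for IL1A lay outside the interval. The test of the difference between the 2 changes was not run.

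IL18 (TC1100012318.hg.1) encodes an epithelial cytokine that is stored as a precursor and, like IL-1β, matured by caspase-1. It was at 7.20 and 7.15 on the MCF10.AT1 arrays and at 8.23, 8.03 and 8.24 on the MCF10.AT1-R arrays. The lowest resistant array was 0.83 above the highest parental one. The difference was 0.99 (1.99-fold, 95% confidence interval from 0.38 to 1.60), and it did not pass the threshold (adjusted p = 0.093, limma). The spread of IL18 within lines was small, with a residual SD of 0.095 where limma used a common SD of 0.341 for every probe set. With limma's trend option, which here let the common SD vary with the level alone, the adjusted p was 3.1e-09. The SE of IL18 was 0.146 with that option and 0.312 in the fit as reported. The small spread of IL18 itself entered neither. Under that option 2.68% of all tested probe sets were past the threshold, and IL18 joined IL1A, IL1RN and IL1R2 as the fourth gene.

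The alarmin IL33 (TC0900006577.hg.1) was at 1.23 and 1.68 in MCF10.AT1 and at 1.19, 1.19 and 1.61 in MCF10.AT1-R. IL36G (TC0200008945.hg.1), an IL-36 agonist of surface epithelia, was at 2.51 and 2.27 and at 2.43, 2.37 and 2.61. Both were below the negative-control level on all 5 arrays and were removed by the filter. They were therefore not measurable above background in either line.

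Among the antagonists, IL1RN (TC0200016511.hg.1) had the largest change of the 10 genes. Its log2 values were 3.11 and 2.14 on the MCF10.AT1 arrays and 6.21, 5.44 and 6.04 on the MCF10.AT1-R arrays. The means were 2.63 ± 0.68 (SD, n = 2) and 5.90 ± 0.40 (SD, n = 3), with a gap of 2.33 between the nearest arrays. IL1RN was thus at background on A02 and close to it on A01, and clearly above background on all resistant arrays. It rose by 3.27 ± 0.31 (SE), with a 95% confidence interval from 2.66 to 3.88 and adjusted p = 2.5e-22 in limma with Benjamini-Hochberg adjustment. With values floored at 2.99 the rise was 2.85, which is 7.20-fold. Its residual SD of 0.515 was above the common SD, so the adjusted p is lenient for this gene. The same holds for IL1A (residual SD 0.403). Among the pathway genes described below it holds for LCN2 (0.423), TNFAIP3 (0.429) and IRAK2 (0.394). IL1RN was past the threshold in 14 of 14 alternative settings, with adjusted p between 2.5e-28 and 0.044 by limma.

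IL36RN (TC0200008949.hg.1), the antagonist of the IL-36 receptor, was at 3.86 and 3.99 on the MCF10.AT1 arrays and at 4.05, 4.41 and 3.94 on the MCF10.AT1-R arrays. The lines overlapped, and the difference was 0.21 (95% confidence interval from −0.40 to 0.82, adjusted p = 0.872 by limma).

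**Figure D2:**
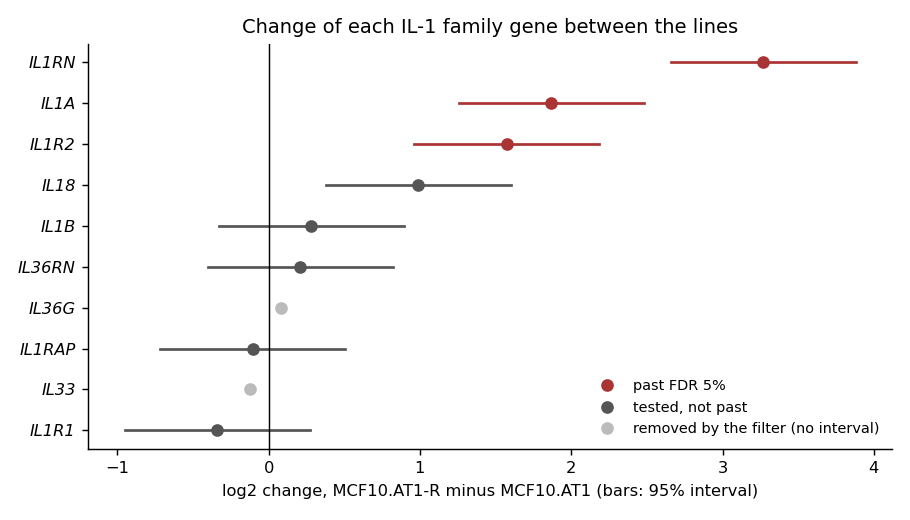
Log2 change of each gene (MCF10.AT1-R minus MCF10.AT1) with limma's 95% confidence interval, and the change alone for the genes that were not tested. The intervals of IL1A, IL1RN, IL1R2 and IL18 lie above 0 and those of IL1B, IL36RN, IL1R1 and IL1RAP include it, while IL18 did not pass FDR 5%.

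Among the receptors, the decoy IL1R2 (TC0200008663.hg.1) was at 3.36 and 3.40 on the MCF10.AT1 arrays and at 5.29, 4.49 and 5.09 on the MCF10.AT1-R arrays. The nearest arrays of the lines were 1.09 apart. IL1R2 rose by 1.57 ± 0.31 (SE, n = 2 and 3), which is 2.98-fold, with a 95% confidence interval from 0.96 to 2.19 and adjusted p = 0.00012 in limma with Benjamini-Hochberg adjustment. It was not past the threshold without a filter (adjusted p = 0.112), with the low-expression filter alone (0.0997), with floored values (0.115) or with A03 counted (0.777), all by limma. A03 was at 3.99 for this gene, the one member for which that array lay above both other MCF10.AT1 arrays.

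The signalling receptor IL1R1 (TC0200008666.hg.1) was at 3.52 and 3.19 on the MCF10.AT1 arrays and at 3.51, 2.30 and 3.24 on the MCF10.AT1-R arrays, where B03 was below the negative-control level. The lines overlapped, with a difference of −0.34 (95% confidence interval from −0.95 to 0.27, adjusted p = 0.835 by limma). The change of the decoy exceeded that of the signalling receptor by 1.91, or by 1.68 with floored values, and over the 5 arrays the difference between them on single arrays did not overlap between the lines. On A03 it was 2.31, above its range of 1.78 to 2.19 on the MCF10.AT1-R arrays, so the lines overlap if A03 is counted. This difference of changes was not tested by a model.

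The accessory protein IL1RAP (TC0300009855.hg.1), shared by the IL-1, IL-33 and IL-36 receptors, was at 4.33 and 4.38 on the MCF10.AT1 arrays and at 4.69, 3.54 and 4.51 on the MCF10.AT1-R arrays. The lines overlapped, and the difference was −0.11 (95% confidence interval from −0.72 to 0.51, adjusted p = 0.940 by limma). The other IL1RAP probe set had a mean of 1.81, was removed by the filter and differed by −0.37. Both chains of the signalling receptor therefore had intervals that include 0. The residual SDs of IL1R1 (0.538) and IL1RAP (0.507) were above the common SD of 0.341, so these intervals are narrow for their own spread. The same holds for IL1B (0.376).

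B03 was the lowest MCF10.AT1-R array for 8 of the 10 genes, against 38.1% of all tested probe sets and 52.6% of the 390 that were past the threshold as higher. Without B03 the changes of IL1A, IL1RN and IL1R2 were 2.14, 3.50 and 1.81 and all 3 were past the threshold. A03 was lower than both other MCF10.AT1 arrays for 7 of the 10 genes. IL18 was at 2.28 on A03, below the negative-control level, where A01 and A02 were at 7.20 and 7.15. With A03 counted as an MCF10.AT1 array, 26 probe sets were past the threshold in place of 620, and of the 10 genes IL1RN was.

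The genes lie in clusters. In RefSeq's gene order on chromosome 2, IL1R2 and IL1R1 are next to each other and are followed by IL1RL2, IL1RL1, IL18R1 and IL18RAP, with 0 protein-coding genes between neighbours. After 55 further protein-coding genes comes the ligand cluster, which runs from IL1A through IL1B, IL37, IL36G, IL36A, IL36B, IL36RN and IL1F10 to IL1RN. The 2 genes at the ends of the ligand cluster rose. Of the 7 genes between them, IL1B and IL36RN were above background and did not pass the threshold, and the other 5 were below the negative-control level on all 5 arrays, 3 of them removed by the filter, so that no difference could be read for them. In the receptor cluster IL1R2, at one end, rose and its neighbour IL1R1 did not pass the test.

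The wider pathway was read from 6 lists with 71 genes, of which 58 were tested. Of these, 5 were past the threshold as higher and 2 as lower, beside 1.20% of all tested probe sets in either direction and 0.758% as higher. The median change over the 71 was 0.01. The other ligands of the family, IL36A, IL36B, IL37 and IL1F10, were below the negative-control level on all 5 arrays. None of the 8 other receptors and binding proteins passed the threshold. Among those above background on any of the 5 arrays, IL1RL2, the receptor for IL-36, had the largest difference (0.71, adjusted p = 0.442 by limma). IL1RL2 was at 3.19 and 2.94 in MCF10.AT1, within background on A02, and at 3.68, 3.59 and 4.06 in MCF10.AT1-R.

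Among 13 receptor-proximal signalling genes, 1 rose and 1 fell. TAB3, an adaptor that links ubiquitin chains to the kinase TAK1, was at 7.79 and 7.64 in MCF10.AT1 and at 8.74, 8.78 and 8.94 in MCF10.AT1-R, a rise of 1.11 (adjusted p = 0.036, limma). IRAK2, a kinase of the receptor complex, was at 3.87 and 4.57 and at 3.15, 2.54 and 2.61, so that 2 of 3 resistant arrays were below the negative controls. IRAK2 fell by 1.45 (adjusted p = 0.00070, limma), or by 1.17 with floored values, where it was not past the threshold (adjusted p = 0.154, limma). TAB3 was past the threshold in 6 of 14 alternatives and IRAK2 in 9 of 14. IRAK2 lost its call without A02 and TAB3 without each of A01, A02, B02 and B04.

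Of 15 genes for the inflammasome, processing and release, CTSS, a lysosomal protease, was past the threshold. It was at 2.91 and 2.21 in MCF10.AT1, below the negative controls, and at 3.78, 3.70 and 3.93 in MCF10.AT1-R. The rise was 1.24 on the log2 scale (adjusted p = 0.0090, limma), and it was 1.76-fold with floored values. CTSS was past the threshold in 8 of 14 alternatives. Its call was lost without A02 or B04, with floored values (adjusted p = 0.066, limma), without a filter, with the low-expression filter alone and with A03 counted. Among 13 NF-kappaB subunits, kinases and inhibitors, TNFAIP3 alone was past the threshold. This gene encodes A20, a ubiquitin-editing inhibitor of NF-kappaB and itself a known NF-kappaB target. TNFAIP3 was at 4.16 and 3.85 in MCF10.AT1 and at 6.54, 5.61 and 6.41 in MCF10.AT1-R, a rise of 2.18 (adjusted p = 1.8e-09, limma). It was past the threshold in 11 of 14 alternatives. Its call was lost with A03 counted (adjusted p = 0.32), with the low-expression filter alone (0.054) and with floored values (0.094), all by limma.

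Of 18 genes known to be induced by IL-1 in epithelial cells, 2 rose, 1 fell and 15 were not past the threshold, with a median change of 0.05. LCN2, an iron-siderophore-binding protein, was at 3.51 and 2.92 in MCF10.AT1 and at 6.41, 5.89 and 6.73 in MCF10.AT1-R, a rise of 3.13 (adjusted p = 2.1e-20, limma). A02 was below the negative controls for LCN2, and with floored values the rise was 3.10. PTGS2, the inducible cyclooxygenase, was at 3.20 and 3.34 and at 5.19, 5.62 and 5.22, a rise of 2.07 (adjusted p = 1.9e-08, limma). The chemokine CCL20 was at 5.66 and 5.73 and at 4.56, 4.14 and 4.95, a fall of 1.14 on the log2 scale (adjusted p = 0.025, limma). The well known targets of IL-1, CXCL8 and IL6, were below the negative controls on all 5 arrays. The list did not move as one, since 10 of its changes were above 0 and 8 below. LCN2 was past the threshold in 14 of 14 alternatives and PTGS2 in 13, all except that with A03 counted. CCL20 was past it in 6 of 14 and lost its call when A01, A02, B02 or B03 was left out.

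**Figure D3:**
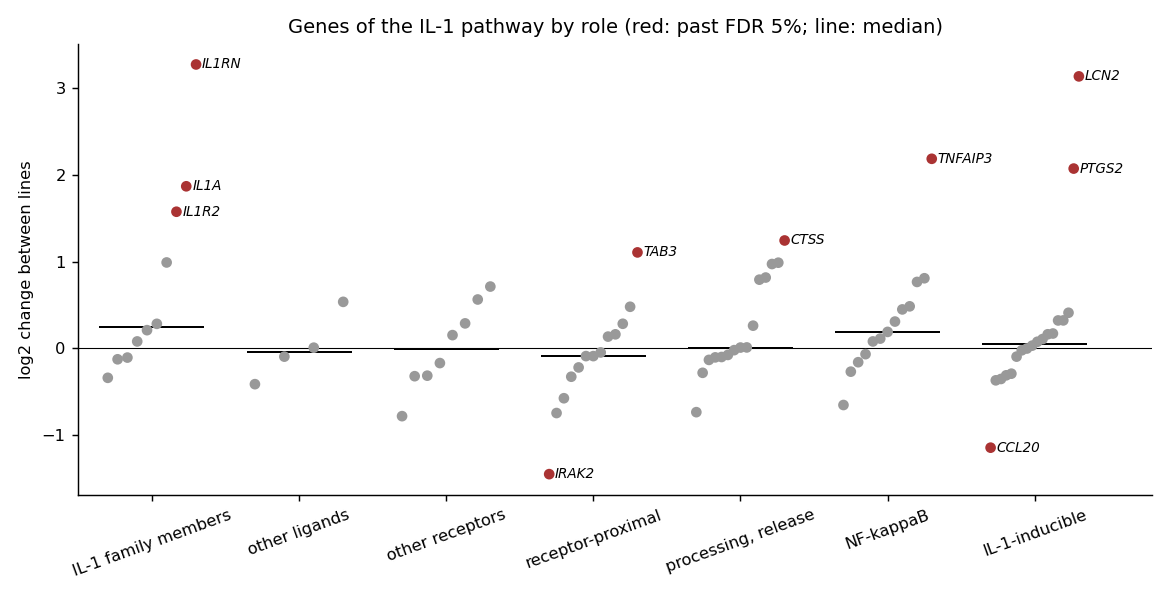
Log2 change (MCF10.AT1-R minus MCF10.AT1, vertical axis) of each of the 10 family genes (leftmost column) and of each gene in the 6 pathway lists, 1 point per gene, with a line at each median. Red points with names are past FDR 5%: beside IL1RN, IL1A and IL1R2 these are 7 pathway genes, of which LCN2, TNFAIP3, PTGS2, CTSS and TAB3 were higher and IRAK2 and CCL20 lower, while the pathway medians lie between −0.09 and 0.19.

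The profile of IL1RN was compared with all 81495 other symbols by the root mean square difference of values centred on each symbol's mean over the 5 arrays. The nearest was LCN2, with a difference of 0.205, followed by the small Cajal body RNA SCARNA7 (0.231), S100A8 (0.260), IVL (0.300) and VGLL1 (0.302). S100A8 encodes a subunit of calprotectin, and IVL encodes involucrin, a precursor of the cornified envelope of keratinocytes. IVL was at 3.58 and 3.44 in MCF10.AT1 and at 6.83, 6.27 and 7.13 in MCF10.AT1-R. S100A8 was at 2.08 and 1.43, below the negative controls, and at 4.71, 4.19 and 5.02. VGLL1 was below the negative controls on both MCF10.AT1 arrays as well. This is a description over 5 arrays, which any gene that is high on the resistant arrays by a similar amount would satisfy.

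**Figure D4:**
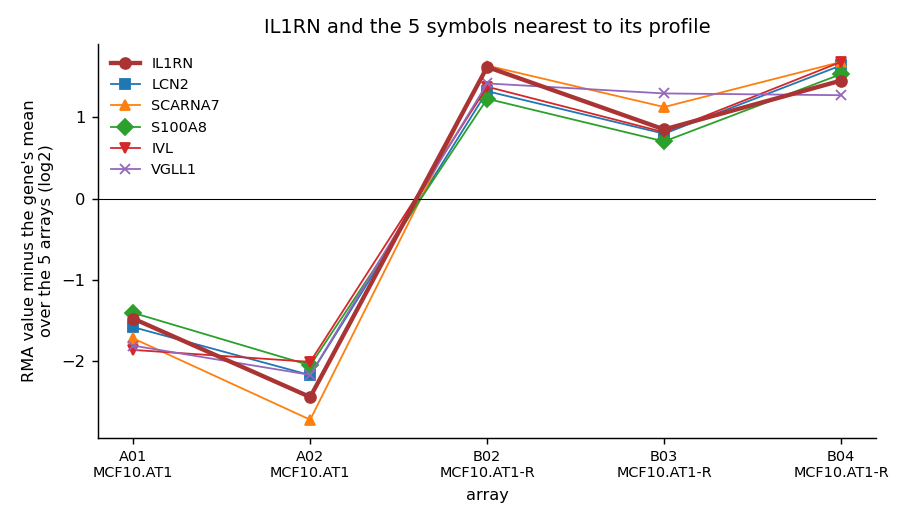
Values of IL1RN and of the 5 symbols nearest to it, each minus its mean over the 5 arrays (log2, vertical axis), on arrays A01, A02, B02, B03 and B04 (horizontal axis). All 6 profiles lie below 0 on the MCF10.AT1 arrays and above 0 on the MCF10.AT1-R arrays, and all except VGLL1 are lowest on B03 among the resistant arrays.

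Markers of cell types were read beside these genes. A marker said to rise or fall was past FDR 5%, beside 1.20% of all tested probe sets in either direction and 0.758% as higher. The summed log2 values of the 10 breast epithelial markers ran from 73.8 to 74.6 on the MCF10.AT1 arrays and from 89.6 to 91.1 on the MCF10.AT1-R arrays. Of 10 cornifying keratinocyte markers, KRT1 and CDSN rose, and the sums ran from 30.0 to 30.0 and from 33.2 to 33.9. FLG and FLG2 were below the negative controls on all 5 arrays, and KRT1, CDSN and LCE2B were above them on all 5. The keratinocyte list did not move as one, since 6 of its changes were above 0 and 4 below, those of LORICRIN, FLG, LCE1A and LCE2B. Both sums were higher in MCF10.AT1-R, as were IL1A, IL1RN and IL1R2, and the part of either list in the result was not tested. Of 10 myeloid markers CD14 fell and none rose, with sums from 30.1 to 32.0 and from 31.6 to 32.8. PTPRC, LYZ, AIF1 and FCER1G were below the negative controls on all 5 arrays, while CD14, CSF1R, TYROBP and C1QA were above them on all 5. Of 8 fibroblast markers FAP rose and DCN fell, and the sums ran from 38.1 to 38.7 and from 36.8 to 37.9. LUM and PDGFRB were below the negative controls on all 5 arrays, while COL1A1, COL1A2, COL3A1 and FAP were above them on all 5.

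**Figure D5:**
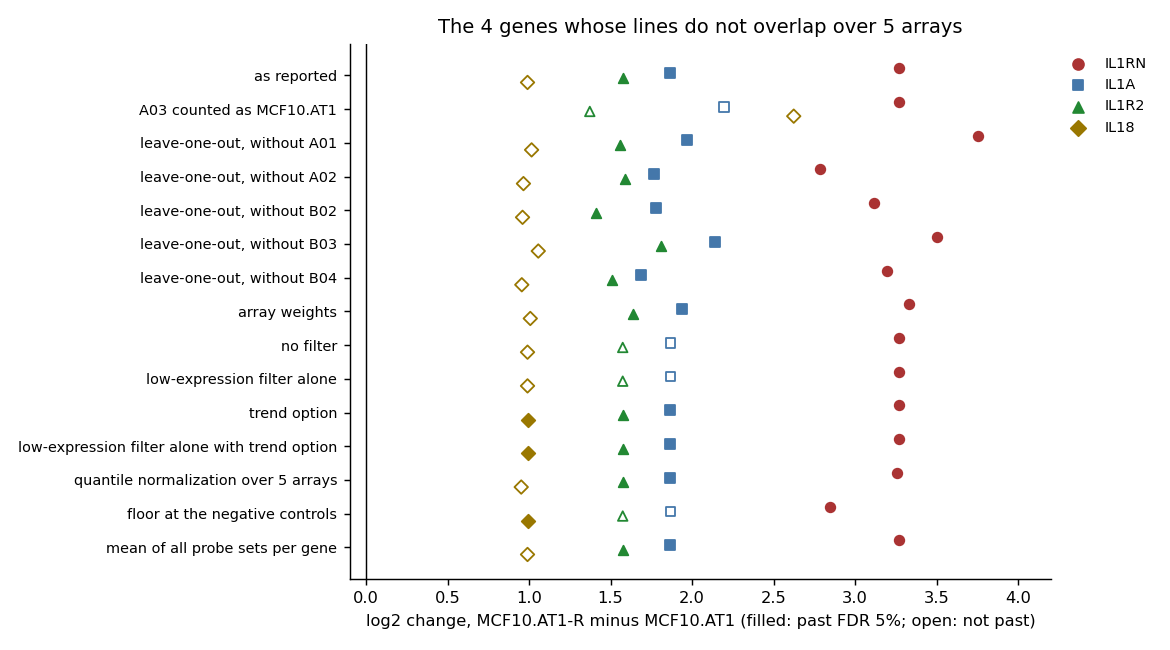
Log2 change (horizontal axis) of IL1A, IL18, IL1RN and IL1R2, the 4 genes whose lines do not overlap over the 5 arrays, in the fit as reported and under each of 14 alternatives. Filled points are past FDR 5% by limma and open points are not: IL1RN is past it in all 14, IL1A and IL1R2 in 10 each and IL18 in 3, and every change is above 0.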

How the data were processed

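Total RNA of the parental line MCF10.AT1 and of MCF10.AT1-R was measured on Clariom D arrays, 3 per line. The values deposited by the authors are log2 expression from RMA (background correction, quantile normalization and summarisation of probes) with the packages affy and oligo, for all 6 arrays and before any filter. The genome build and annotation version were not given in the sources used here. Column names carry a letter and a number, and the letter was read as the line because the study removed A03 and kept 2 MCF10.AT1 and 3 MCF10.AT1-R arrays.

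From these values the lines were compared here without A03 by limma 3.58.1 (lmFit, then eBayes) under R 4.3.3, with Benjamini-Hochberg adjustment over all tested probe sets and a threshold of FDR 5%. A probe set entered the test when its mean over 5 arrays exceeded the median of all (1.88) and its SD exceeded the lowest 25% (0.176). The 2995 control probe sets were left out of the comparison, and 612 negative controls among them set the background level. limma then estimated 1 common SD for all probe sets. Genes removed by the filter were read from a fit without it. DFNA5 and LOR are the array's symbols for GSDME and LORICRIN.

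The members and lists were chosen with earlier results of these data known. The genes named are all members, up to 4 genes with the largest change past the threshold per pathway list, and defining markers. For a list with none past it, the gene named has the largest change among those above background on any of the 5 arrays. The 5 symbols most like the member with the largest change are named as well. Alternatives changed 1 choice at a time, except that the low-expression filter alone was also run together with the trend option: A03 counted, each array left out, array weights, filters, trend option, quantile normalization over 5 arrays, a floor at the negative controls, the mean of all probe sets per gene, and FDR 10%. Precision is limited by the small number of arrays.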

Additional observations from a re-analysis of the deposited data

How the results depend on the processing

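No paired analysis was possible because the array columns carry no replicate numbers shared with the labels. In place of 620 probe sets, 3 family genes and 7 listed pathway genes past FDR 5%, limma gave 26, 1 and 1 with A03 counted, 177, 1 and 3 without a filter, 182, 1 and 2 with the low-expression filter alone, and 272, 2 and 3 with values floored at the negative controls. The trend option gave 1377 probe sets, 4 family genes and 9 pathway genes, and 1086, 4 and 9 with the low-expression filter alone. Leaving out each array gave 271 to 595 probe sets, 3 to 3 family genes and 3 to 7 pathway genes. The lowest counts of probe sets came without A02 (271) and without A01 (314), and the lowest of pathway genes without A02, where each fit has a lone MCF10.AT1 array that is assumed to vary like the other line. No change of a family gene past the threshold reversed its direction. IL1RN was past the threshold in 14 of 14 alternatives, with changes from 2.79 to 3.75. IL1A kept its call in 10 of 14 (changes from 1.69 to 2.20) and IL1R2 in 10 of 14 (1.37 to 1.81), both losing it with A03 counted, without a filter, with the low-expression filter alone and with the floor. IL18 gained a call in 3 of 14: with the trend option (adjusted p = 3.1e-09, limma), with that option and the low-expression filter alone (0.00027) and with the floor (0.044). FDR 10%, which is not counted in the 14, gave 851 probe sets, 4 family genes with IL18 among them, and 8 pathway genes. The cause of these differences was not tested. With 2 arrays against 3 the smallest absolute change called was 1.07, and IL33 and IL36G could not be read above background.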

Other observations

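Beyond the genes past the threshold, 2 of the 15 genes for the inflammasome, processing and release are described here. Both had non-overlapping lines and were past FDR 5% with limma's trend option alone. They were chosen after their values were seen. Of the 15 genes, 7 had non-overlapping lines, 5 higher and 2 lower, beside 26.7% of tested probe sets in either direction. With the trend option 2.68% of all tested probe sets were past FDR 5%. CASP4, an inflammatory caspase that senses lipopolysaccharide in the cytosol, was higher in MCF10.AT1-R by 0.79 (adjusted p = 5.6e-12 with the trend option, limma), and CAPN1, a calpain protease of the class that cleaves the IL-1α precursor, by 0.82 (adjusted p = 0.00025 with the trend option, limma). Each was past the threshold in 2 of 14 alternatives, both of them with the trend option. On the excluded array A03 CASP4 was at 2.98, where A01 and A02 were at 8.64 and 8.56. CAPN1 was at 4.51 on A03 and at 6.57 and 6.59 on A01 and A02.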
